A study of Mus musculus with 64 samples.

Results

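The proteasome subunit genes were taken as every gene on the array whose symbol begins with Psma, Psmb, Psmc, Psmd or Psme followed by a number, which gave 44 of 18194 named genes. Of these, 42 encode subunits, assembly factors or activators of the proteasome. The other two, Psmc3ip and Psme3ip1, were matched by their letters only and are shown apart. Where a gene had several probe sets, the one brightest on average across the 64 arrays was read. The 42 proteasome genes comprised 7 alpha ring subunits (Psma1 to Psma7), 7 constitutive beta ring subunits (Psmb1 to Psmb7), 3 immunoproteasome beta subunits (Psmb8, Psmb9 and Psmb10), 6 cap ATPases (Psmc1 to Psmc6), 11 other cap subunits of the Psmd series, 3 cap assembly factors (Psmd5, Psmd9 and Psmd10) and 3 activators (Psme1, Psme3 and Psme4). The last 2 were Psma8 and Psmb11, the subunits of the testis and thymus forms. Psme2 shares its probe set with another symbol and was not named here.

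The proteasome degrades proteins that carry ubiquitin chains. Its core is a barrel of outer alpha rings, which gate the entrance, and inner beta rings, of which Psmb5, Psmb6 and Psmb7 carry the proteolytic sites. The cap recognises the ubiquitin chain, removes it with Psmd14, and unfolds and threads the substrate with the ring of Psmc ATPases. Interferon signalling replaces the catalytic beta subunits by Psmb8, Psmb9 and Psmb10, and this immunoproteasome cuts peptides suited to presentation on MHC class I molecules. In neurons, proteasomes take part in the turnover of synaptic proteins.

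The samples were hippocampus and prefrontal cortex of mice aged 4 months on a B6SJLF1 background, either Tg2576, which over-express a mutant human amyloid precursor protein, or wild-type littermates. For 28 days an implanted minipump gave each mouse either vehicle or PF-04447943, which blocks PDE9A, a phosphodiesterase that breaks down cyclic GMP. All groups, controls included, carried a pump. The 8 groups of genotype, treatment and region held 8 samples each, 1 array per sample. In the Tg2576 line the prion protein promoter, which is active throughout the brain, drives the transgene. The design text names frontal cortex where the sample labels name prefrontal cortex. Array medians lay between intensities of 90.9 and 100.7. The labels do not say whether equal replicate numbers in both regions mark the same mouse, nor whether numbers mark a batch.

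The dissected regions carried their defining markers. Markers of dentate granule cells were higher in hippocampus for 3 of 3 tested genes, those of CA pyramidal cells for 4 of 4, oligodendrocyte markers for 4 of 4 and choroid plexus markers for 3 of 3. Markers of cortical projection neurons were lower in hippocampus for 3 of 4, the other, Fezf2, being higher (0.40). Striatal markers, of a tissue outside both regions, were lower for 3 of 3. Their mean log2 level varied widely among prefrontal arrays, from 7.31 to 10.72 in vehicle-treated wild-type and from 7.19 to 10.74 in vehicle-treated Tg2576 mice. Under PF-04447943 it ran from 7.10 to 9.93 and from 7.25 to 10.46. The choroid plexus mean ran from 7.15 to 11.65 in vehicle-treated wild-type hippocampus. Whether such tissue content has a part in the regional values was not tested. The array labelled hippocampus, Tg2576, PF-04447943, number 1 stood apart. Its mean log2 level over the dentate markers was 5.28 (median of the other 7 arrays 8.04), over the CA pyramidal markers 8.91 (10.55) and over the cortical markers 9.48 (8.34). Counts of called members are also given without it.

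Promoter sequences are shown for 5 members on which the results below turn: Psmb8 and Psmb9, whose highest arrays coincided, Psma7, which passed the threshold for the drug, and Psmc1 and Psmd11, which were lower in hippocampus. They run from 250 bases before to 50 bases after the annotated start in RefSeq (GRCm38.p6). Capitals mark matches, on either strand, to the motifs TTCNNNGAA (the GAS site of STAT factors), the interferon-stimulated response element core, TGACNNNGC (the antioxidant response element core), CCAAT (the CCAAT box) and CCGGAAG (an ETS factor site).
Psmb8 promoter, chr17:34197945-34198244, plus strand: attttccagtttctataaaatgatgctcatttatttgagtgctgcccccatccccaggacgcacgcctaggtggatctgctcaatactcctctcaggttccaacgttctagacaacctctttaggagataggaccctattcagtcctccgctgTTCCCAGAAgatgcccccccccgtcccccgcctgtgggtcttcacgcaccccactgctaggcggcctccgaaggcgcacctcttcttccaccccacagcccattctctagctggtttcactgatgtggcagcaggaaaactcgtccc
Psmb9 promoter, chr17:34187281-34187580, minus strand: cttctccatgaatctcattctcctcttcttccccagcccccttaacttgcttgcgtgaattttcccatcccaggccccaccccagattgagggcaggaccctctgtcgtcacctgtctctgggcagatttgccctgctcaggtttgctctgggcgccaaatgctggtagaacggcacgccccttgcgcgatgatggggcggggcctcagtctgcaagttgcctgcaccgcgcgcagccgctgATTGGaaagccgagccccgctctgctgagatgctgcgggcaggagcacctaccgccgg
Psma7 promoter, chr2:180042415-180042714, minus strand: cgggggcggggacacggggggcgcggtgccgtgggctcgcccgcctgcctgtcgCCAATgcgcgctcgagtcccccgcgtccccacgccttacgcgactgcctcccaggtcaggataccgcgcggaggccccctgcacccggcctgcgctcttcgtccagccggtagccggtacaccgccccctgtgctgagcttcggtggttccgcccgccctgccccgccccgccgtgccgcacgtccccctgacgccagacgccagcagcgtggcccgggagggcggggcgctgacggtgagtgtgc
Psmc1 promoter, chr12:100109952-100110251, plus strand: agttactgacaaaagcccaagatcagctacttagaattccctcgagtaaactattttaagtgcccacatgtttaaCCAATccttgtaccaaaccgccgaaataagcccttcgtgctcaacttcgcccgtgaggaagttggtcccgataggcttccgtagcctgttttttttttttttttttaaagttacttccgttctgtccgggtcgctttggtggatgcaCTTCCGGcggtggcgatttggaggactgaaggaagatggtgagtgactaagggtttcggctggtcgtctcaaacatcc
Psmd11 promoter, chr11:80428365-80428664, plus strand: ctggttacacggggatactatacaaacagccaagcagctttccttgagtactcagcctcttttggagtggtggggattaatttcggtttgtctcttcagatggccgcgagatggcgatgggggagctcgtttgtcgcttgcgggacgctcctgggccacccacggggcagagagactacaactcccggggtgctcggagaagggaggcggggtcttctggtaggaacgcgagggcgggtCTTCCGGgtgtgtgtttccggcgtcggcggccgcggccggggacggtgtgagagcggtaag
Of the 44 members, 37 had an entry in the promoter table, with 40 windows in all. The ETS site letters were present in 15 of these 40 windows (37.5%) and in 8.86% of all 32851 promoter windows of that length. In Psmc1 they lie 28 to 22 bases before the start and in Psmd11 11 to 5 bases before it. The CCAAT box was present in 16 of the 40 member windows and in 37.4% of all windows. The antioxidant core was found in 6 of the member windows (12.4% of all windows), the interferon response core in 4 (3.44% of all windows) and the GAS letters in 2, those of Psmb8 and Psmd2 (8.3% of all windows). No match to 1 motif overlapped a match to another in the 5 sequences printed. A match is a description of letters and not of binding.

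Of the 44 members, 42 passed the filter on dim genes in both regions: 40 proteasome genes, Psmc3ip and Psme3ip1. Psma8 (mean log2 4.62) and Psmb11 (4.85) lay below it, and the levels of all other members ranged from 6.48 for Psmb9 to 12.08 for Psmb7. These levels come from different probe sets and give no order of abundance. Differences are log2 values from limma. A member was called at an adjusted p under 0.05, the adjustment running across every gene in the fit.

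The regional comparison asked whether hippocampus and prefrontal cortex differ in proteasome RNA. Over the 4 conditions, 24 of 42 members were lower in hippocampus and 6 were higher (limma, adjusted p under 0.05). Of all 12955 genes tested, 39.0% were called lower, 33.0% higher and 72.1% in either direction. The median difference was -0.11 for the members and -0.017 for all genes. In tissue RNA, fewer cells of a type and less RNA per cell cannot be told apart, and the 2 regions differ in cell makeup by the markers above.

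**Figure D1:**
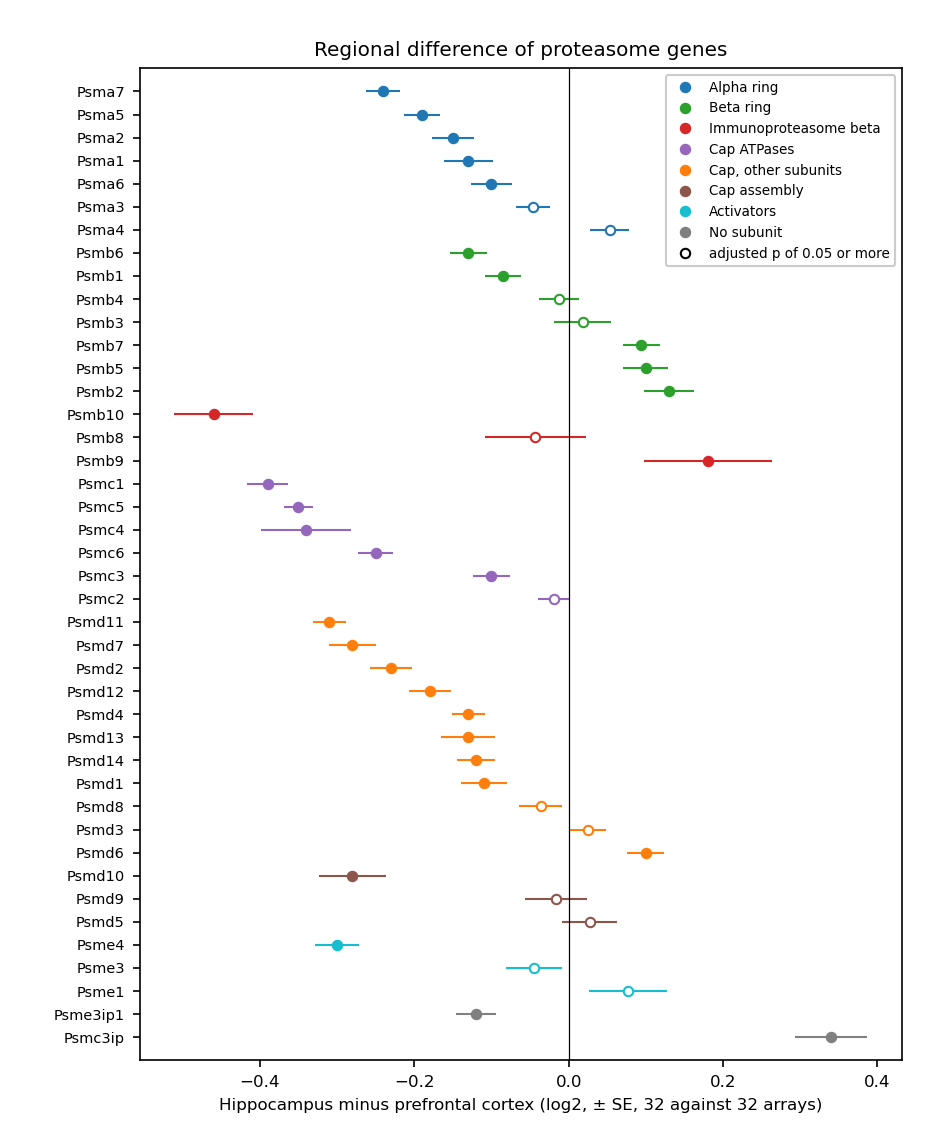
Difference between hippocampus and prefrontal cortex (log2, horizontal axis) for each of the 42 tested members, with SE bars over 32 against 32 arrays. Members are grouped and coloured by role, and open circles mark an adjusted p of 0.05 or more. The cap ATPases and most other cap subunits lie left of 0, while Psmb2, Psmb5 and Psmb7 of the beta ring lie right of it.

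The ATPases of the cap were lower in hippocampus for 5 of 6 members. Psmc5 was read at 11.68 to 11.85 (median 11.76) on the 8 hippocampal arrays of vehicle-treated wild-type mice and at 12.03 to 12.20 (median 12.10) on the 8 prefrontal arrays. These groups did not overlap. The share of all genes without overlap between such groups of 8 arrays is not given, and 44.9% of all genes were called in this comparison. Missing overlap between these groups, here and for Psmc1 and Psmd11 below, only describes the ranges. Over all conditions Psmc5 was lower by 0.35 (difference -0.35 ± 0.02, SE, adjusted p = 4.89e-25, n = 32 arrays per region). Its 32 hippocampal arrays reached 11.98 and its prefrontal arrays began at 11.96. The overlap came from the array that stood apart: on the other 31 hippocampal arrays Psmc5 reached 11.92. Without that array Psmc5 was 1 of 42 members with no overlap between regions and lower in hippocampus, against 2.01% of all genes, and 0 of 42 were higher without overlap (2.4% of genes). With all arrays it was 0 of 42 lower (0.718% of genes) and 0 of 42 higher (1.17%).

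Psmc1 was read at 10.41 to 10.61 (median 10.47) in vehicle-treated wild-type hippocampus and at 10.73 to 11.11 (median 10.89) in prefrontal cortex, again without overlap. Its difference over all conditions was -0.39 ± 0.03 (SE, adjusted p = 1.07e-19). Psmc4 varied more: its hippocampal wild-type vehicle arrays ran from 10.52 to 11.59 (median 10.99) and the prefrontal ones from 11.05 to 11.44 (median 11.31), so these groups overlapped. Its difference was -0.34 ± 0.06 (SE, adjusted p = 5.28e-07). Psmc6 was lower by 0.25 (difference -0.25) and Psmc3 by 0.10 (-0.10). Psmc2, at -0.019 (adjusted p = 0.404), did not pass.

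Among the other cap subunits, 8 of 11 were lower in hippocampus and 1, Psmd6, was higher. Psmd11, a scaffold subunit of the lid, was read at 10.87 to 10.98 (median 10.92) in vehicle-treated wild-type hippocampus and at 11.17 to 11.34 (median 11.25) in prefrontal cortex. The 2 groups did not overlap. Its difference over all conditions was -0.31 ± 0.02 (SE, adjusted p = 1.52e-20). Of its 3 other probe sets above the filter level, 1 gave -0.29, and the others gave 0.006 and -0.023. Psmd7, the partner of the deubiquitinase Psmd14, was at -0.28 ± 0.03 (SE, adjusted p = 2.45e-12), Psmd2, a large base subunit, at -0.23, Psmd14 at -0.12 and Psmd4, a ubiquitin receptor, at -0.13. Psmd6 was at 0.10 (adjusted p = 0.000413) by its brightest probe set and -0.067 by its other one (adjusted p = 0.114 over all probe sets). The mean of both was at 0.015 (adjusted p = 0.582), which ends the call. Of the assembly factors, Psmd10 was lower (-0.28, adjusted p = 8.32e-08), and Psmd5 (0.027) and Psmd9 (-0.016) did not pass.

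In the core, the alpha ring was lower in hippocampus for 5 of 7 members and the beta ring was mixed. Psma7 was at -0.24 ± 0.02 (SE, adjusted p = 8.39e-15), with the hippocampal array below the prefrontal mean of its condition on 32 of 32 arrays. Psma5 was at -0.19 by its brightest probe set and at -0.011 by its other one (adjusted p = 0.664 over all probe sets). Of the 7 constitutive beta subunits, Psmb2 (0.13 ± 0.03, SE, adjusted p = 0.000315), Psmb5 (0.10 ± 0.03, adjusted p = 0.00174) and Psmb7 (0.094 ± 0.024, adjusted p = 0.000492) were higher, and Psmb6 (-0.13) and Psmb1 (-0.085) were lower. The catalytic subunits thus did not share a sign: Psmb5 and Psmb7 lay above 0 and Psmb6 below. Another Psmb1 probe set read the opposite way (0.086).

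The immunoproteasome subunits differed among themselves. Psmb10 had the lowest difference of all members, -0.46 ± 0.05 (SE, adjusted p = 6.87e-12). In vehicle-treated wild-type mice it was read at 8.97 to 9.69 (median 9.50) in hippocampus and 9.52 to 10.15 (median 9.87) in prefrontal cortex, and the ranges met. Its difference within each of the 4 conditions lay between -0.49 and -0.40. Psmb9 was at 0.18 ± 0.08 (adjusted p = 0.0493) and passed narrowly. The call ended with quantile normalization (0.16, adjusted p = 0.0924), with centring of each array (0.16, adjusted p = 0.0911) and with the mean of the probe sets (adjusted p = 0.0501). Psmb9 has 1 probe set, so its own values were the same in that last fit. With 1 array left out at a time the call held in 23 of 64 fits. The values ran from 0.14 (adjusted p = 0.0908), without number 3 of drug-treated wild-type hippocampus, to 0.22 (adjusted p = 0.00586), without number 3 of drug-treated wild-type prefrontal cortex. Psmb8 was at -0.043 (adjusted p = 0.564). Of the activators, Psme4, the activator of the PA200 type, was lower (-0.30 ± 0.03, adjusted p = 1.22e-13). With the mean of its probe sets its call ended (-0.039, adjusted p = 0.477). Psme1, a subunit of the interferon-inducible PA28 activator, was at 0.077 (adjusted p = 0.173; with quantile normalization 0.12, adjusted p = 0.0152) and Psme3, the nuclear activator, at -0.045 (adjusted p = 0.261). The other Psme3 probe set was higher in hippocampus, at 0.24 (adjusted p = 1.04e-06 over all probe sets). Of 27 further probe sets of members above the filter level, 18 had the sign of the chosen one. In 9 cases both passed the threshold, with the opposite sign in 1, that of Psmb1.

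Psmc3ip, a meiotic recombination factor and no proteasome subunit, was the member with the highest regional difference, 0.34 ± 0.05 (SE, adjusted p = 4.05e-09). Psme3ip1 was lower (-0.12). In vehicle-treated wild-type mice alone, 18 of 42 members passed, against 44.9% of all genes. Of these members 16 were lower and 2, Psmb2 and Psmc3ip, were higher, against 23.8% and 21.1% of all genes. There Psmb5 was at 0.12, Psmb6 at -0.14, Psmb7 at 0.10, Psmb8 at -0.052, Psmb9 at 0.22, Psmb10 at -0.49, Psme1 at 0.11, Psme3 at -0.077 and Psme4 at -0.33, and of these Psmb6, Psmb10 and Psme4 passed. Without the hippocampal array that stood apart, 24 members were lower and 7 higher over all conditions, Psma4 being the one added. The shares of all genes without that array are not given. With all arrays they were 39.0% lower and 33.0% higher.

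The size and the split of the regional result differed between replicate numbers. With the arrays numbered 1 to 4 only, 32 members were lower and 2 higher, and with numbers 5 to 8 only, 12 were lower and 12 higher. The median of all genes was -0.083 in the first set and 0.021 in the second, and that of the members -0.19 and -0.018. Both medians thus moved in the same direction, and the counts in each set are not a result about the members alone. The signal range of an array, the interquartile range of its log2 values, moved in the same way. Group means for numbers 1 to 4 were 3.40 to 3.64 in hippocampus and 3.67 to 3.82 in prefrontal cortex, and for numbers 5 to 8 they were 3.53 to 3.67 and 3.50 to 3.60. With signal range as a covariate 24 members were lower and 11 higher, and with quantile normalization 23 and 10. The shares of all genes called in each of these separate settings are not given here. In both sets of numbers 12 members were lower: Psma5, Psma7, Psmb10, Psmc1, Psmc4, Psmc5, Psmc6, Psmd2, Psmd7, Psmd11, Psmd12 and Psme4. Psmc3ip alone was higher in both. The corresponding shares of all genes were 21.1% and 17.5%. Psmb3, Psmb4, Psmd5, Psmd9 and Psme1 were called in opposite directions in the 2 sets.

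Genes that work with the proteasome were read beside it. Of all genes tested over the 4 conditions, 39.0% were called lower in hippocampus, 33.0% higher and 72.1% in either direction. The counts for the 3 lists below stand beside these shares and show no excess of calls. Of 12 tested assembly and associated proteins, 6 were lower and 2 higher in hippocampus. The cap-bound deubiquitinases Uchl5 (-0.51, adjusted p = 1.02e-19) and Usp14 (-0.32, adjusted p = 2.82e-13) and the core assembly factor Pomp (-0.30, adjusted p = 4.14e-20) were among those lower, and the core assembly chaperone Psmg4 (0.28) was higher. Of 8 tested regulators of subunit genes, Nfe2l1, the factor that induces proteasome genes when proteasome activity falls, was lower (-0.18, adjusted p = 3.58e-08) and Nfe2l2 higher (0.21, adjusted p = 6.44e-05). In all, 3 of these 8 were lower and 2 higher. Of 8 tested genes for ubiquitin and its shuttling, 3 were lower and 2 higher. Rad23b, a carrier of ubiquitylated substrates, was at 0.41 (adjusted p = 1.38e-06).

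The drug comparison asked whether inhibition of PDE9A alters proteasome RNA. In hippocampus, averaged over both genotypes, 1 of 42 members passed the threshold, Psma7, which rose by 0.14 ± 0.04 (SE, n = 16 arrays per treatment, limma adjusted p = 0.0293). Of all 12967 genes tested, 2.34% were called in either direction and 0.787% were called higher. The split of called genes moved with the scaling: 102 of 303 were higher as deposited, 83 of 171 with each array centred on its median and 21 of 131 with quantile normalization. The members' differences ran from -0.08 to 0.18 with a median of 0.047, and 33 of 42 lay above 0. For all genes the median was 0.03 and 64.5% lay above 0. An unadjusted p under 0.05 was given to 12 of 42 members and to 21.6% of all genes.

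Psma7, an alpha ring subunit, was read at 10.58 to 10.72 (median 10.66) on the vehicle arrays of wild-type hippocampus and at 10.54 to 10.87 (median 10.75) under PF-04447943. In Tg2576 hippocampus it was read at 10.42 to 10.76 (median 10.47) under vehicle and at 10.70 to 10.83 (median 10.76) under the drug. The low arrays were thus those of vehicle-treated Tg2576 mice, and both pairs of groups overlapped. The difference was 0.23 ± 0.05 in Tg2576 (SE, n = 8 per group, adjusted p = 0.159) and 0.057 ± 0.05 in wild-type (adjusted p = 0.632). The drug by genotype term was 0.18 ± 0.07 (adjusted p = 1.0). In prefrontal cortex Psma7 was at 0.01 (adjusted p = 1.0), and the drug by region term was 0.13 ± 0.04 (adjusted p = 0.244), so a difference between regions was not shown. The drug by region term passed for 0 of 42 members (limma, background 0.00772% of genes), and 2 had an unadjusted p under 0.05. For this term, drug in hippocampus minus drug in prefrontal cortex, Psmb5 to Psmb10 lay between -0.14 and 0.092 and the activators between 0.039 and 0.17.

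**Figure D2:**
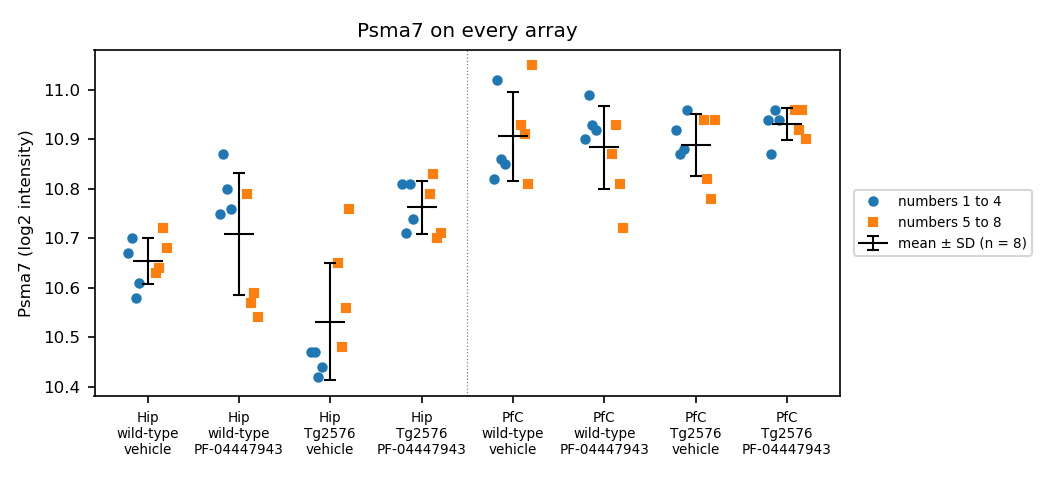
Psma7 level (log2 intensity, vertical axis) on all 64 arrays by group, with hippocampus (Hip) on the left and prefrontal cortex (PfC) on the right. Bars give the mean ± SD (n = 8), circles the arrays numbered 1 to 4 and squares those numbered 5 to 8. The arrays of vehicle-treated Tg2576 hippocampus numbered 1 to 4 lie lowest, at 10.42 to 10.47.

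The Psma7 call rested on few arrays. Leaving out any one of arrays 1, 2, 3 or 4 of vehicle-treated Tg2576 hippocampus, or array 3 of PF-04447943-treated wild-type hippocampus, left 0 members past the threshold, and leaving out array 5 of vehicle-treated Tg2576 hippocampus gave 2, with Psma5 added. Without the hippocampal array that stood apart, Psma7 was at 0.14 (adjusted p = 0.0364). With numbers 1 to 4 only, 5 members passed, namely Psma1, Psma5, Psma7, Psmc4 and Psme1, with Psma7 at 0.24 (adjusted p = 0.00396). With numbers 5 to 8 only, none passed and Psma7 was at 0.052 (adjusted p = 0.843). The count of all genes called for the drug also rose in the first set and fell in the second, as given below. These member counts are therefore not a result about the proteasome genes alone. Signal range moved with the drug in hippocampus, from 3.52 ± 0.08 to 3.65 ± 0.06 in wild-type and from 3.52 ± 0.12 to 3.60 ± 0.11 in Tg2576 (SD, n = 8 each), and was 3.40 for vehicle-treated Tg2576 arrays 1 to 4. With signal range as a covariate Psma7 was at 0.12 (adjusted p = 0.549) and 16 of 42 members lay above 0. With quantile normalization it was at 0.088 (adjusted p = 0.18) and 20 of 42 lay above 0. The other Psma7 probe set gave 0.10 (adjusted p = 0.108 over all probe sets).

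**Figure D3:**
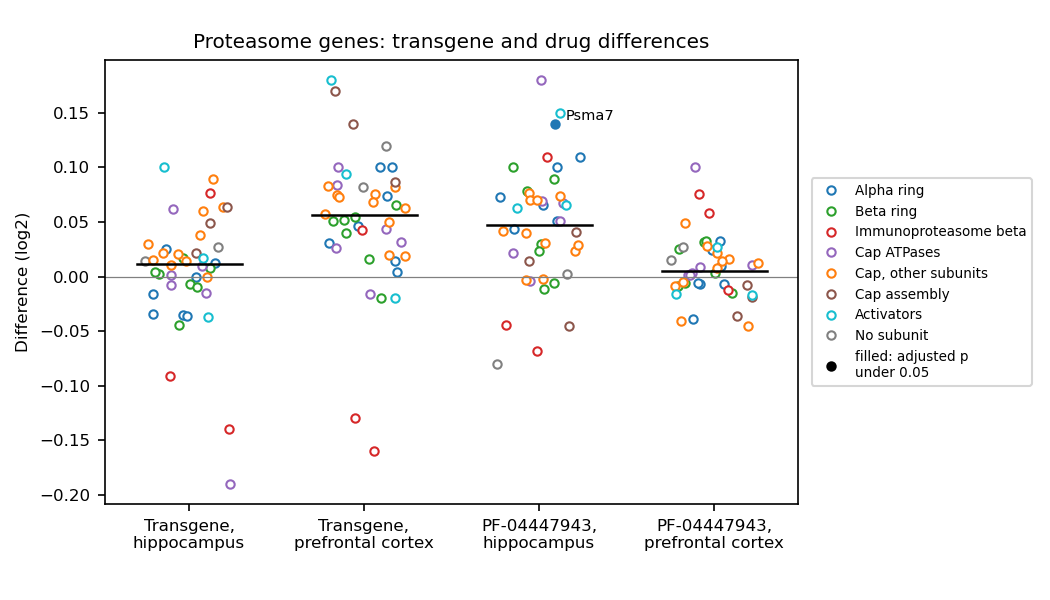
Differences (log2, vertical axis) of the 42 tested members for the transgene and for PF-04447943 in each region, coloured by role. Bars give the medians, 0.012 and 0.056 for the transgene in hippocampus and prefrontal cortex and 0.047 and 0.006 for the drug, and Psma7 is the filled point.

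By role, the alpha ring subunits lay at 0.044 to 0.14 in the hippocampal drug comparison and the activators at 0.063 to 0.15, with Psma7 the only call. These signs depended on the scaling: with signal range as a covariate 5 of 7 alpha ring subunits and 0 of 3 activators lay above 0, and with quantile normalization 6 of 7 and 3 of 3. Psma5 was at 0.10 (adjusted p = 0.103), Psma1 at 0.11 (adjusted p = 0.2), Psmb6 at 0.10 (adjusted p = 0.109), Psmb1 at 0.078 (adjusted p = 0.163), Psmc4 at 0.18 (adjusted p = 0.209) and Psme1 at 0.15 (adjusted p = 0.249). Psmb8 was at -0.044 (adjusted p = 0.794), Psmb9 at -0.068 (adjusted p = 0.735) and Psmb10 at 0.11 (adjusted p = 0.31). Without number 3 of drug-treated wild-type hippocampus Psmb8 was at -0.094 (adjusted p = 0.446) and Psmb9 at -0.15 (adjusted p = 0.22), and without number 7 of vehicle-treated wild-type hippocampus at -0.002 and -0.027. Psmb5 was at -0.011, Psmb7 at 0.023, Psme3 at 0.066 and Psme4 at 0.063. Of the proteasome-associated proteins, 1 of 12 passed: Uchl5 rose by 0.16 ± 0.04 (SE, adjusted p = 0.0331) and lay above the vehicle mean of its genotype on 16 of 16 drug arrays. Without the array that stood apart it was at 0.16 (adjusted p = 0.0399). Its call ended with quantile normalization (0.11, adjusted p = 0.0655), with the mean of its probe sets (0.14, adjusted p = 0.116), with a covariate for signal range (0.056, adjusted p = 0.862), with numbers 5 to 8 only (0.11, adjusted p = 0.781) and in 12 of 32 fits that left out 1 array. Of 11 tested interferon and class I genes, 1 passed: Tap1, a subunit of the peptide transporter that takes proteasome products into the endoplasmic reticulum, fell by 0.30 (adjusted p = 0.015, lower on 15 of 16 drug arrays). Without the array that stood apart it was at -0.29 (adjusted p = 0.0203), and its call held in 32 of 32 fits that left out 1 array. It ended with signal range as a covariate (-0.27, adjusted p = 0.387) and with numbers 5 to 8 only (-0.19, adjusted p = 0.781).

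In prefrontal cortex the drug moved no member past the threshold (limma, 0 of 42, background 0.00773% of genes, and 0 of 42 at an unadjusted p under 0.05). The differences ran from -0.04 to 0.10 with a median of 0.006. The smallest p values were those of Psmd11 (-0.041), Psmc4 (0.10), Psmd14 (-0.045), Psma3 (-0.039) and Psmd8 (0.049), all with an adjusted p of 1.0. Psmb5 was at -0.006, Psmb6 at 0.003, Psmb7 at 0.033, Psmb8 at -0.012, Psmb9 at 0.076, Psmb10 at 0.058, Psme1 at -0.017, Psme3 at 0.027 and Psme4 at -0.016. Without number 3 of drug-treated wild-type prefrontal cortex Psmb9 was at -0.01 and Psmb8 at -0.082. The drug by genotype term gave 0 of 42 members in either region (background 0.0% in both), with 1 member, Psma7, in hippocampus and 2, Psma5 (0.14) and Psme4 (-0.17), in prefrontal cortex at an unadjusted p under 0.05. For this term, drug in Tg2576 minus drug in wild-type, Psmb9 was at -0.32 in both regions and Psmb8 at -0.22 in hippocampus and -0.10 in prefrontal cortex. Psmb10 was at -0.034 and -0.074, Psmb5 to Psmb7 lay between -0.093 and 0.036, Psme1 and Psme3 between -0.16 and 0.014, and Psme4 was at -0.064 in hippocampus. The Psmb9 term includes number 3 of drug-treated wild-type mice. There Psmb9 was at 7.82 in hippocampus and 7.79 in prefrontal cortex (medians of the other 7 arrays 6.43 and 6.29). The term without that number is not given.

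The transgene comparison asked whether carrying the amyloid precursor protein transgene alters proteasome RNA at this age. In hippocampus 0 of 42 members passed (limma, background 0.0925% of genes), and 2 had an unadjusted p under 0.05. These were Psmd12, a lid subunit, at 0.089 (adjusted p = 0.476), and Psmc4 at -0.19 (adjusted p = 0.541). Without the array that stood apart 0 of 42 passed, with Psmd12 at 0.079 (adjusted p = 0.591) and Psmc4 at -0.22 (adjusted p = 0.529). Next by p were Psmc6 at 0.062, Psmd4 at 0.06 and Psme3 at 0.10. Above 0 lay 29 of 42 members and 49.6% of all genes, and 13 of 42 members had the same sign with numbers 1 to 4 as with numbers 5 to 8. Psmb8 was at -0.14 (adjusted p = 0.696) and Psmb9 at -0.091 (adjusted p = 0.845), and without number 3 of drug-treated wild-type hippocampus at -0.088 and -0.008. Psmb10 was at 0.077, Psmb5 at 0.017, Psmb6 at -0.01, Psmb7 at 0.008, Psme1 at -0.037 and Psme4 at 0.017.

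In prefrontal cortex also 0 of 42 members passed (limma, background 0.0464% of genes), and 6 had an unadjusted p under 0.05, against 12.2% of all genes. Psme1 had the smallest p, at 0.18 ± 0.07 (SE, n = 16 arrays per genotype, adjusted p = 0.326). It was read at 9.23 to 9.93 (median 9.54) in vehicle-treated wild-type cortex and at 9.58 to 9.96 (median 9.71) in vehicle-treated Tg2576 cortex, and the groups overlapped. The others were Psmc6 at 0.10, Psma1 at 0.10, Psmd10 at 0.17, Psmd5 at 0.14 and Psma2 at 0.10, with adjusted p values from 0.329 to 0.374. In all, 37 of 42 members lay above 0, with a median of 0.056. For all genes the share was 67.6% and the median 0.034. Psmb8 (-0.13, adjusted p = 0.551) and Psmb9 (-0.16, adjusted p = 0.557) lay below 0, and without number 3 of drug-treated wild-type prefrontal cortex they were at -0.059 and -0.072. Psmb10 was at 0.043, Psmb5 at 0.066, Psmb6 at 0.052, Psmb7 at 0.016, Psme3 at 0.094 and Psme4 at -0.02. The transgene effect differed between regions for 0 of 42 members (background 0.0% of genes, 2 members at an unadjusted p under 0.05, Psme1 at -0.22 and Psma1 at -0.13, hippocampus minus prefrontal cortex). On this term Psmb5 to Psmb10 lay between -0.062 and 0.068, Psme3 at 0.006 and Psme4 at 0.036. Within single conditions, 0 of 42 members passed in each of 8 comparisons of genotype or drug (limma). The background was 0.0386% of genes for the drug in wild-type hippocampus, 0.00771% for the transgene in vehicle-treated hippocampus and 0.0% in the other six. At an unadjusted p under 0.05 stood 0 to 4 members per comparison. Without the array that stood apart 0 of 42 passed in each of the 4 hippocampal ones. Psma7 in Tg2576 hippocampus was called for the drug without number 5 or number 8 of the vehicle group.

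For Psmb8 and Psmb9 the highest arrays of a condition often had the same number in both regions. In wild-type mice under PF-04447943, Psmb9 was read at 6.31 to 7.82 (median 6.51) in hippocampus and at 5.74 to 7.79 (median 6.43) in prefrontal cortex, and the highest array was number 3 in both regions. Psmb8 was also highest on number 3, at 7.99 (median of the other 7 arrays 7.19) and 8.29 (7.20). In vehicle-treated wild-type mice both genes were highest on number 7 in both regions, Psmb9 at 7.15 and 6.95 and Psmb8 at 7.81 and 7.65. In vehicle-treated Tg2576 mice both were highest on number 6, Psmb9 at 7.02 and 6.77 and Psmb8 at 7.59 and 7.70. The highest array thus had the same number in both regions for both genes in 3 of 4 conditions. In drug-treated Tg2576 mice it did not: number 8 was highest for both genes in hippocampus, and in prefrontal cortex number 7 for Psmb8 and 3 for Psmb9.

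**Figure D4:**
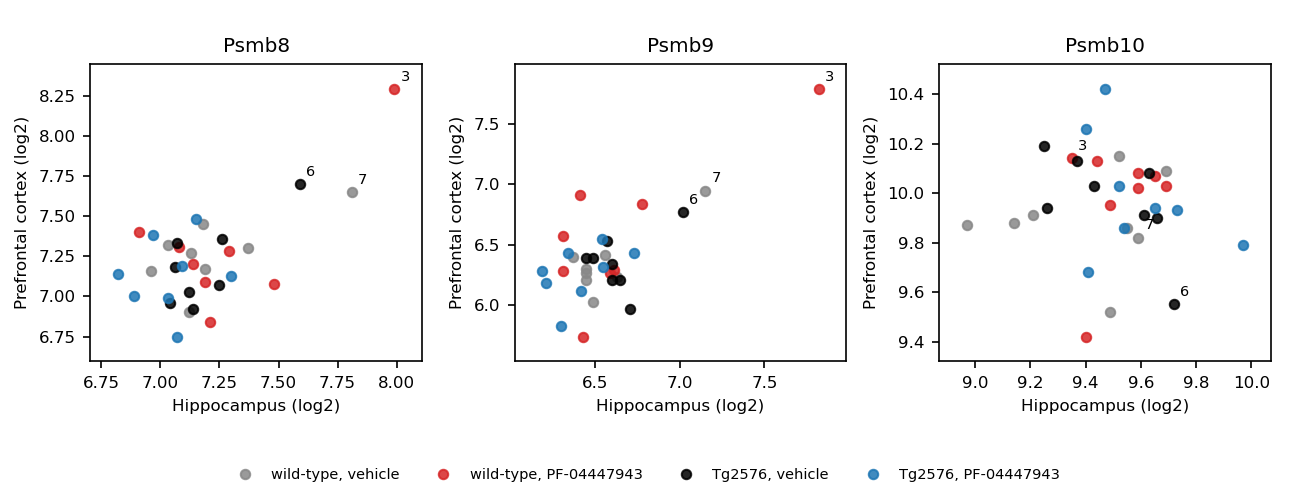
Level in hippocampus (log2, horizontal axis) against prefrontal cortex (log2, vertical axis) for samples of equal condition and number, 32 points per gene, coloured by condition. The points numbered 3, 7 and 6 lie at the upper right for Psmb8 and Psmb9, while for Psmb10 the same samples lie within or at the edge of the rest.

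Their constitutive counterparts were read on the same arrays. On number 3 of drug-treated wild-type mice, the hippocampal Psmb9 level exceeded the median of the other 7 arrays by 1.38 and the prefrontal one by 1.51. For Psmb8 these values were 0.79 and 1.09. There Psmb5 differed from that median by 0.053 and 0.002, Psmb6 by -0.07 and -0.071 and Psmb7 by -0.021 and -0.073. On number 7 of vehicle-treated wild-type mice Psmb5 differed by 0.086 and -0.17, Psmb6 by 0.057 and -0.22 and Psmb7 by 0.053 and -0.16. There number 7 was the lowest prefrontal array of its group for Psmb6. It was also the lowest for Psmb5 (11.34) and Psmb7 (11.89), each equal after rounding to another array. Psmb7 was highest on the hippocampal one. The prefrontal array was also the lowest of its group for many other subunits, Psma2, Psmb1, Psmc1 and Psmd1 among them. Its low readings were thus not particular to the catalytic subunits. On number 6 of vehicle-treated Tg2576 mice Psmb5 differed by -0.021 and -0.17, Psmb6 by 0.011 and -0.12 and Psmb7 by -0.14 and -0.10. There Psmb5 and Psmb6 were the lowest prefrontal arrays of the group and Psmb7 the lowest hippocampal one. That prefrontal array was also the lowest of its group for many other subunits, Psma1, Psmb1, Psmc1 and Psmd1 among them. Its low readings were thus not particular to the catalytic subunits. On number 3, Psmb10, the third immunoproteasome subunit, differed by -0.23 and 0.11, and Psme1 by -0.093 and 0.066. On number 6 of vehicle-treated Tg2576 mice Psmb10 was at 0.29 above the median of the others in hippocampus and at -0.48 in prefrontal cortex, where it was the lowest array of its group.

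Genes of interferon signalling and class I presentation were high on the same arrays. Of 14 such genes named on the array, the number that exceeded all 7 other arrays of the group was 10 in hippocampus and 10 in prefrontal cortex for number 3 of drug-treated wild-type mice, where 8.89% and 9.21% of all genes did so. For number 7 of vehicle-treated wild-type mice it was 7 and 6 (16.1% and 8.78% of genes), and for number 6 of vehicle-treated Tg2576 mice 10 and 7 (16.7% and 10.5%). The shares cover only genes that passed the filter on dim genes. Of the 14 genes, 11 passed it in hippocampus and 12 in prefrontal cortex. Nlrc5, which lay below it, was counted on each of these arrays. Ifit1 was counted on number 3 in both regions, at 5.58 and 6.01. Its medians on the other arrays of those groups, 5.31 and 5.38, lay below the filter levels of 5.94 and 5.91. Gbp2, an interferon-induced GTPase, was at 8.09 and 8.64 on number 3, above the median of the other arrays by 2.35 and 2.63. On number 7 it was above by 2.12 and 1.75, and on number 6 by 1.47 and 0.98. H2-K1, a class I heavy chain, was above by 1.59 and 1.52 on number 3, by 1.58 and 1.46 on number 6 and by 0.47 and 0.68 on number 7, where it was not the highest prefrontal array. B2m, the class I light chain, was above by 0.90 and 0.92 on number 3, by 0.66 and 0.47 on number 6 and by 0.32 and 0.02 on number 7. Tap1 was above by 0.25 and 0.48 on number 3.

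**Figure D5:**
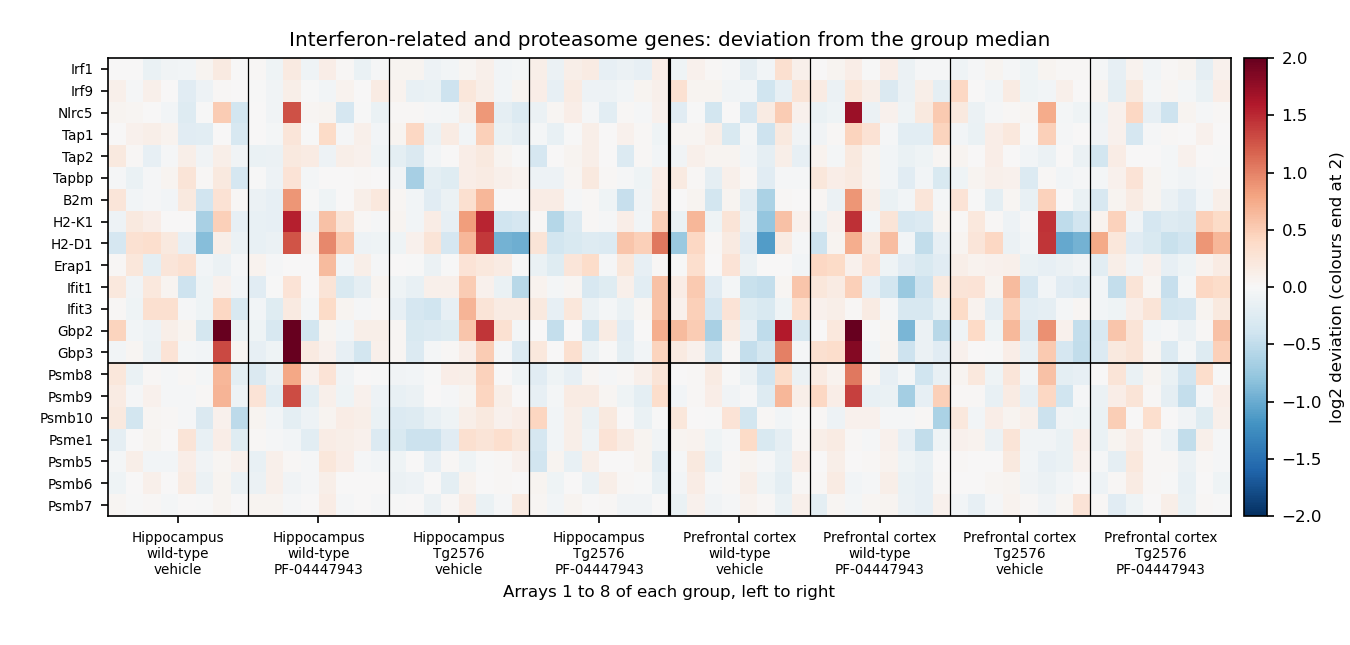
Deviation from the group median (log2, colour scale ending at 2 in each direction) of 14 interferon and class I genes, above the line, and of Psmb8, Psmb9, Psmb10, Psme1, Psmb5, Psmb6 and Psmb7, below it. Columns are arrays 1 to 8 of each group. Number 7 of vehicle-treated wild-type, number 3 of drug-treated wild-type and number 6 of vehicle-treated Tg2576 mice show positive (red) values in both regions for Gbp2, H2-K1, Psmb8 and Psmb9.

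Microglial markers did not move with these arrays in 1 direction. Their mean log2 level over 7 genes on number 3 of drug-treated wild-type mice was 8.82 in hippocampus, the lowest of its group (median of the others 8.96), and 8.90 in prefrontal cortex (9.04). On number 7 of vehicle-treated wild-type mice it was 9.06 (8.91) and 8.94 (9.08), and on number 6 of vehicle-treated Tg2576 mice 9.29 (8.95), the highest of its group, and 9.12 (9.08). No group of the study is defined by these arrays, and they are given as values of single samples. Whether microglial content has a part in these values was not tested.

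The core, cap and activator subunits varied together among the arrays of a region. Over the 666 pairs of 37 subunits, the median correlation of deviations from the group mean was 0.37 in hippocampus and 0.57 in prefrontal cortex over 32 arrays. Over all pairs of genes tested it was 0.05 and 0.13. The median correlation of a member with the signal range of the array was 0.46 in hippocampus and 0.61 in prefrontal cortex. The correlations among subunits are therefore given as a description only.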

How the data were processed

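RNA of 64 samples, 8 in each combination of genotype, treatment and region, was hybridised to Affymetrix mouse whole-genome arrays with 45101 probe sets. The deposited values are intensity values on a linear scale, from 5.87 to 34088.93. Per the submitters' processing notes the authors summarised them by RMA, with the version of that software not given in the sources used here. In general this method corrects background, equalises arrays and summarises probes, and it compresses differences. The deposited arrays still differed in median and in signal range, as given above. Values were converted to log2 here. Arrays have no read depth, and their number limits the precision.

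Symbols came from the platform annotation and RefSeq. Of the probe sets, 34945 had a single symbol, 932 several and 9160 none, and 64 were controls. A RefSeq gene ID was matched for 34754. The brightest probe set stood for each of 18194 genes. Genes with a mean under the 40th percentile of a region (log2 5.94 in hippocampus, 5.91 in prefrontal cortex) were left out. Tests were made with lmFit and eBayes (limma 3.58.1, R 4.3.3), fitting the 4 groups of a region jointly for drug and transgene and all 8 groups jointly for region. They were two-sided, and the Benjamini-Hochberg adjustment covered every gene in the fit. The code was tested on simulated data. Other software was matplotlib 3.10.9, pandas 2.3.3, numpy 2.4.6, Python 3.11.15 and version 1.17.8 of the R package data.table.

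The members and gene lists were chosen with earlier results of these data known. The plan was to name Psmb5 to Psmb10 and the activators in each comparison. To these were added members past the threshold (at most 10 in each direction) or else the 5 of smallest p. The 3 highest and 3 lowest levels were also listed in the plan. Interaction terms are given partly as ranges, and not every member chosen by this plan is printed. Single arrays, marker values, associated genes and further probe sets were named after their values were seen. Alternative settings changed the filter, probe set rule, normalization, prior, weights, covariate, block, threshold and arrays left out. The comparison of numbers 1 to 4 with 5 to 8 was added after seeing the data. The design text gives 8 mice per group, and the labels do not tie an array to a mouse. If arrays of a group shared a mouse, p-values would measure technical spread in part.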

Additional observations from a re-analysis of the deposited data

Results flagged for a closer look

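Of 112 sets of 8 arrays (14 members in 8 groups), 13 held a highest or lowest array whose gap to its nearest neighbour was over 0.526 of the whole range. At a rate of 1 in 20, chance alone gives 5.6. Of the 13 arrays, 6 were high arrays for Psmb8 or Psmb9, which are described above with the interferon genes. Psmb9 stood at 7.82 on number 3 of drug-treated wild-type hippocampus (nearest array 6.78). On number 7 of vehicle-treated wild-type mice it stood at 7.15 in hippocampus (nearest 6.63) and 6.95 in prefrontal cortex (6.42). On number 6 of vehicle-treated Tg2576 hippocampus it stood at 7.02 (6.71). Psmb8 stood at 7.59 on that last array (7.26) and at 8.29 on number 3 of drug-treated wild-type prefrontal cortex (7.40).

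Psmb10 was low on prefrontal arrays, at 9.42 on number 8 of drug-treated wild-type mice (nearest 9.95) and at 9.55 on number 6 of vehicle-treated Tg2576 mice (9.90). The first of these arrays was also low for Psmc1, at 10.56 (10.91). It was the lowest of its group for many further members, Psma1, Psma7, Psmc5 and Psmd11 among them. The second was likewise the lowest of its group for many members, as given above. These low values are thus not particular to Psmb10 and Psmc1. Psme1 was low at 9.26 on number 6 of drug-treated Tg2576 prefrontal cortex (9.62), and Psme4 was high at 9.60 on number 6 of drug-treated Tg2576 hippocampus (9.37). Psmb7 was high at 12.26 on number 5 of drug-treated wild-type hippocampus (12.16). Psmc5 was high at 11.98 on number 1 of drug-treated Tg2576 hippocampus (11.83), the array whose regional markers stood apart.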

How the results depend on the processing

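The count of members differing between regions over all conditions was 30, and 24 (numbers 5 to 8) to 35 (signal range as a covariate) under the other settings. The first count stands beside 72.1% of all genes, and the shares under the other settings are not given. Leaving out 1 array at a time gave 29 to 31 members over all conditions (9255 to 9432 of all genes). It gave 15 to 20 in vehicle-treated wild-type mice (5427 to 5947 of all genes) and 0 to 2 for the drug in hippocampus (81 to 812). For the drug in Tg2576 hippocampus it gave 0 to 1 (Psma7, without number 5 or 8 of the vehicle group), and 0 in each of the other comparisons. In vehicle-treated wild-type mice, numbers 5 to 8 alone gave 10 members where all arrays gave 18. All arrays called 44.9% of all genes there, and the share with numbers 5 to 8 is not given. The single member called for the drug in hippocampus became 0 with the mean of the probe sets, with quantile normalization, with signal range as a covariate and with numbers 5 to 8, and 5 with numbers 1 to 4. Numbers 1 to 4 also gave 2 members for the drug by region and 1 within a single condition, where all arrays gave 0. The count of all genes called for the drug in hippocampus, 303, was 852 without a filter, 63 with the 60th percentile, 115 with the mean of the probe sets, 590 over all probe sets, 131 with quantile normalization, 171 with centred arrays, 577 with array weights, 1 with the covariate, 960 at a threshold of 0.10, 1203 with numbers 1 to 4, 0 with numbers 5 to 8 and 799 with these sets of numbers as a blocking term. The cause was not tested.

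Some values changed sign. With the mean of the probe sets, the transgene difference in hippocampus was -0.085 for Psmc6 and -0.01 for Psme4, the hippocampal drug difference of Psmb1 was -0.014, and the regional difference of Psme3 was 0.082 over all conditions and 0.086 in vehicle-treated wild-type mice. With the covariate, the hippocampal transgene difference was 0.006 for Psmb6 and 0.009 for Psme1, the prefrontal transgene difference of Psmb10 was -0.046, the hippocampal drug difference was -0.003 for Psma1, -0.037 for Psme1, -0.001 for Psme3 and -0.012 for Psme4, and the regional difference of Psme3 was 0.011. With centred arrays, the drug difference of Psmb5 was 0.003 in hippocampus and 0.009 in prefrontal cortex, and that of Psmb8 in prefrontal cortex was 0.003. With quantile normalization the hippocampal drug difference of Psmb7 was -0.012. The cause was not tested.

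With the replicate number as a block, 32 members differed between regions over all conditions, 19 did so in vehicle-treated wild-type mice, 1 was called for the drug in hippocampus and 0 elsewhere. That block called 743 of all genes for the drug in hippocampus. Its shares of all genes called between regions are not given. Without a block they were 72.1% over all conditions and 44.9% in vehicle-treated wild-type mice. The regional counts are therefore not a result about the members alone. Arrays of equal condition and number in the 2 regions had correlated deviations above 0.1 in 20 of 32 pairs (median 0.16, range -0.26 to 0.54). Arrays of equal number but different condition had a median of 0.12 within hippocampus and 0.16 within prefrontal cortex. These values do not settle whether equal numbers mark the same mouse. The numbers were not taken as a pairing because the labels do not state one. If they mark the same mouse, the regional p-values treat arrays of 1 mouse as independent.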
